A study of Mus musculus with 2 samples.

Results

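Transcript models of mouse heart that keep the 3' part of a known transcript and lack its 5' part are described here. They carry the class "incomplete splice match" with the subtype "suffix", meaning that the model's introns equal the last introns of a longer transcript and nothing more. A model was taken when it had this class in both libraries, lay outside the spike-ins, matched between the libraries by chromosome, strand and intron chain, and had at least 5 reads in each library. This left 1193 models in 635 genes, of 28632 such models listed in either library and 91724 and 94012 models of all classes in replicates 1 and 2. The models were thus selected on their read counts and class, so their presence and level are described and not tested. Only the difference between the libraries was tested. The minimum of 5 reads in each library limits the differences that this test can find.

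The total RNA was heart RNA from females of the hybrid strain B6CASTF1/J, aged 14 days, with no treatment named in the labels. There was 1 group with 2 libraries of long-read RNA sequencing, so the libraries can be compared but no condition can. The labels number them as biological replicates, but fields of replicate 2 name the animal differently and a shared description speaks of several females, so separate animals are not assured and the spread may be technical. All p-values and intervals below cover counting error only.

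Replicate 1 held 896941 reads and replicate 2 held 972159. Genomic reads (within a gene but without a splicing pattern) and spike-ins were left out, which left 858071 and 926560 reads, so that 1 read was worth 1.17 and 1.08 CPM (reads scaled to the library's total). The tissue label was checked against marker genes. All 8 cardiomyocyte markers had reads in both libraries and summed to 40374 and 40953 CPM, while Myh1, Myh4 and Tnnt3 of the 4 skeletal muscle markers were at 0 in both. The 2 erythroid markers summed to 12800 and 11199 CPM and the 4 fibroblast markers to 6407 and 6218. Smooth muscle and pericyte markers summed to 938 and 789 CPM, endothelial markers to 300 and 292 and macrophage markers to 179 and 146. The 2 lung markers summed to 132 CPM in replicate 1 and 8.63 CPM in replicate 2, and the part of other tissue in the results was not tested.

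An mRNA is transcribed from its capped 5' end to its 3' end, where a poly(A) tail is added, and its 5' part usually holds the start codon. Genes can also carry promoters inside a longer annotated transcript, which give RNAs that share only the 3' exons. The deposited tables hold no measurement of the cap. An RNA that begins inside the annotated transcript and a longer RNA of which only the 3' part was read therefore cannot be told apart here.

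The positions at which some of the most-read models begin are shown first, because the results on single genes turn on them. Each stretch holds 15 bases before and 15 bases after the model's start in the spliced annotated transcript of GENCODE M21, in capitals from the first base that the model keeps. All of these bases are coding, and the start was the same in both libraries.
Actn2: agacatgggcttatgGCAAAGAACAGATCT
Pink1: agcagttacttacagAAGATCCAGAGATGG
Hrc: tgttctttctgcaacCGATGTACCGAATGT
Ndufa4: taatccagatgtcagCTGGGACAGAAAGAA
Ndufs7: ggtgtccatggggagCTGTGCCAATGGCGG
Atp5b: actgtgtcccgggcaAGAAAGATACAGCGC
On mm10 the stretches span chr13:12288643-12290688 (minus strand, Actn2-201), chr4:138318064-138320003 (minus, Pink1-201), chr7:45337517-45337901 (plus, Hrc-201), chr6:11905248-11906034 (minus, Ndufa4-205), chr10:80255122-80255938 (plus, Ndufs7-201) and chr10:128089026-128089055 (plus, Atp5b-201). In the first 5 the capitals begin at the annotated 5' boundary of an exon. In Atp5b they begin inside an exon of Atp5b-201, at the annotated start of another Atp5b transcript.

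The models held 34000 reads in replicate 1 and 37325 in replicate 2, which was 3.96% and 4.03% of the reads (4.00% ± 0.0466, SD, n = 2). They took 56.6% and 57.5% of all reads in the suffix class, in which 66.5% and 65.8% of the models listed had a single read. The median model had 11 reads in replicate 1 and 12 in replicate 2, and the highest had 1724 and 2057. Of the models taken, 217 had exactly 5 reads in at least 1 library, and 325 matched models fell just short with 4 reads in the lower library. The other incomplete subtypes were far rarer under the same rule. Prefix models, which keep the 5' part and lack the 3' part, numbered 66 with 889 and 1002 reads.

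Of the 1193 models, 1125 had an annotated reference in their gene, meaning the annotated transcript with the most reads that ends in the model's introns. The other 68 were the 3' part of an unannotated model with its own splice sites or exon combination, and 39 of them lay in Myh6. More than 1 annotated transcript could have given 519 of the 1125, which is 46.1%. Models kept a median of 7 exons, from 2 to 50, and had a median length of 2007 and 2027 bases.

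The part missing against the reference was a median of 4 exons and 706 bases in replicate 1 and 701 in replicate 2, with quartiles of 308 and 1558 bases. This was 27.8% of the reference in the median model. Exactly 1 exon was missing in 304 models, 2 in 129 and 3 in 90, and 10 or more were missing in 308. Among the 1116 models with a coding reference, 178 (15.9%) lacked no coding base in either library. The median loss was 33.7% of the coding bases, 386 models lacked over 50% of them, and 3 lacked all. In 102 models of 74 genes the reference itself had no read in either library.

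The annotated 3' end of the reference was also the end of the model in 53.6% of models in replicate 1 and 54.3% in replicate 2. At the other end, 25.5% of models in both libraries began at an annotated transcript start of the gene. A further 58.8% and 60.1% began at the annotated 5' boundary of an exon, 6.12% and 6.37% at a 3' boundary, and 7.54% and 6.37% inside an exon. In all, 90.4% and 92.0% of starts lay on an annotated boundary to the base, and 79.2% were identical in both libraries. A deposited start that lies on a boundary so often cannot be read as the position at which a read began, and each library's model gives a single start. All suffix models listed had a similar makeup, with 21.2% and 21.6% at a transcript start and 64.6% and 65.0% at the 5' boundary of an exon. Each value came from the same libraries in both sets, and the sets overlap, so no test was made.

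**Figure D1:**
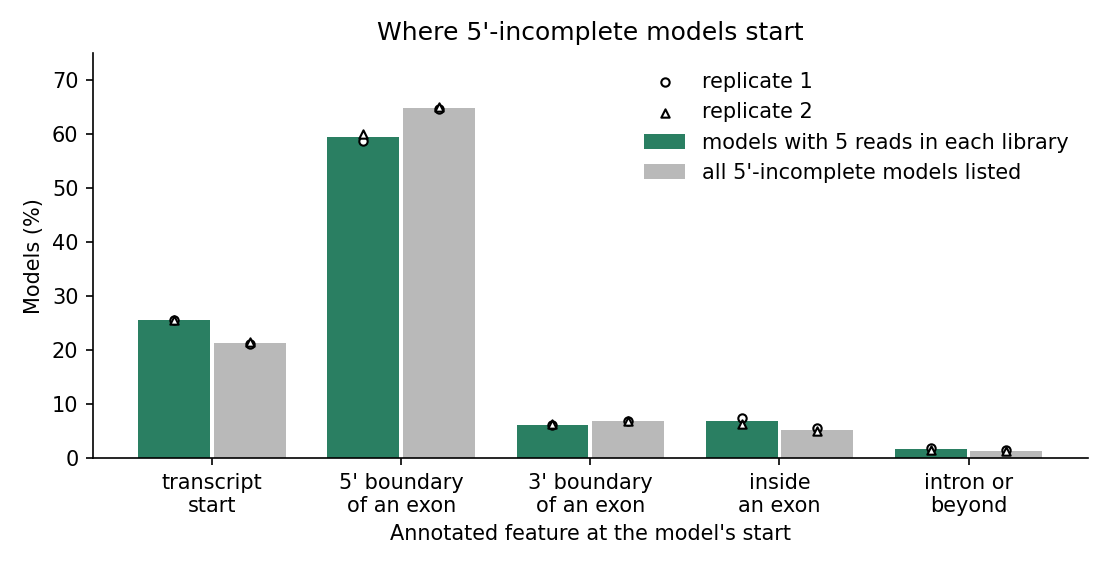
Percent of 5'-incomplete models (y axis) by the annotated feature on which the model starts (x axis); bars are means over the 2 libraries and markers the single libraries. Green bars are the 1193 models described here and grey bars all suffix models listed. The 5' boundary of an exon holds most starts in both sets, and 25.5% of the green models lie on a transcript start.

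Starts within 50 bases of an annotated transcript start in both libraries were found for 288 models, or 24.1%, and these held 27.7% and 28.5% of the reads of all the models. The share was 5.28% when only transcripts with a read in these libraries could give the start. RefSeq promoters were available for the gene of 950 models, and 40 of these began within 50 bases of a RefSeq start in both libraries. Of the 40, 2 were not also near a GENCODE start.

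Before the gene results, the level at which the models occur is given by gene. Members were found in 7.13% of the 8895 genes with at least 5 reads in each library, but in 56.3% of the 213 genes with at least 500. Between these, the share was 2.83% of 6209 genes with 5 to 50 reads and 13.7% of 2473 genes with 50 to 500. The minimum of 5 reads ties the presence of a model to the depth of its gene. Most genes, 471 of 635, had a single model, 34 had 5 or more and 12 had 10 or more.

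The share of a gene's reads that lay on the models had a median of 13.1% over 632 genes, 12.7% in replicate 1 and 13.4% in replicate 2. These genes were taken for having a model with at least 5 reads in each library, so a gene with few reads can only have a high share. Over all genes with at least 50 reads, with or without a model taken, the median share on any suffix model was 2.51% and 2.42%. Genes that had at least 50 reads in each library numbered 456, and in these the libraries differed by a median of 1.23 percentage points and at most 20.6. The share was under 10% in both libraries in 251 of the 456 genes. It was at least 25% in 66 genes, at least 50% in 26 and at least 90% in 4.

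**Figure D2:**
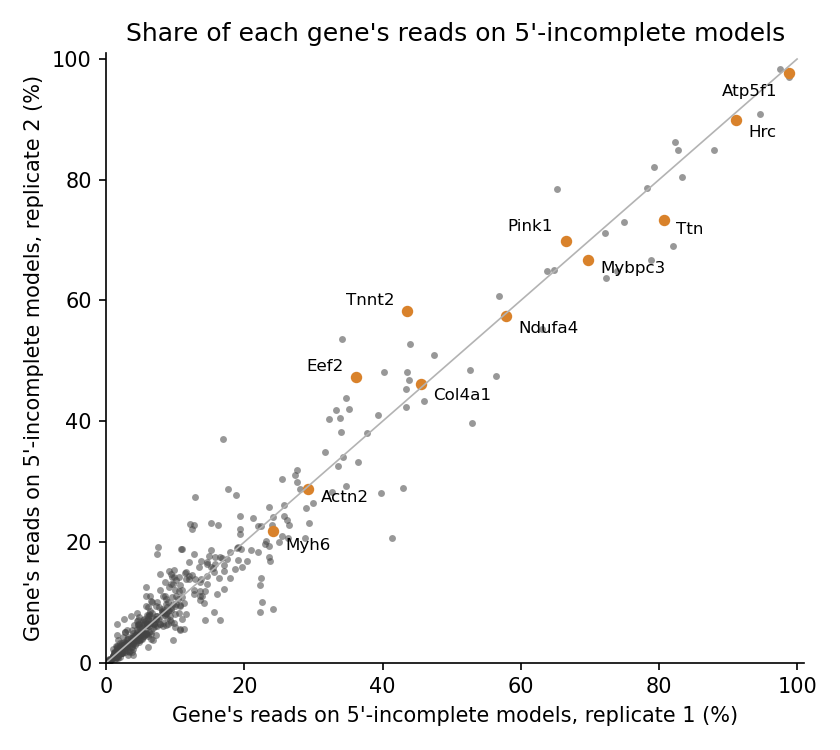
Percent of each gene's reads on 5'-incomplete models in replicate 1 (x axis) and replicate 2 (y axis) for the 456 genes with at least 50 reads in each library; each point is a gene and the line marks equal shares. Most points sit under 10% in both libraries, and Atp5f1, Hrc, Ttn and Mybpc3 are among those above 60%.

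Myh6 (ENSMUSG00000040752.16, minus strand of chromosome 14), the alpha myosin heavy chain that drives contraction of the mouse heart muscle cell, had the most models and the most reads. Its 78 models held 6465 of 26832 and 6221 of 28537 reads, or 24.1% and 21.8% (22.9% ± 1.62, SD, n = 2). The 95% exact intervals were 23.6 to 24.6% and 21.3 to 22.3% and did not overlap. Those of Atp5b, at 22.7 to 24.5% and 24.9 to 26.7%, did not overlap either. How many genes had such intervals was not counted. The near-identical paralog Myh7 had 5 and 14 reads in all, and the placement of reads between the pair was not tested.

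The Myh6 models formed a ladder that kept from 2 to 38 of the 39 exons, with a model at 37 different exon counts. The top step held the most reads. Its 7 models kept 38 exons and had 2165 and 2151 reads, 33.5% and 34.6% of the reads on Myh6 models. The most-read of them, with 1458 and 1457 reads, began at chr14:54965899 and lacked only exon 1, which is 88 bases and holds no coding base. Reads on the lower steps were unevenly spread. They peaked at 14 exons kept with 465 and 441 reads, whereas 15 exons had 42 and 40. The next steps were 19 exons with 381 and 278 reads, 20 exons with 271 and 285, 25 exons with 288 and 261, and 27 exons with 267 and 209. The lowest steps lay at 34 exons with 9 and 11 reads, 3 exons with 20 and 14, and 5 exons with 22 and 23. The order of the steps was close to the same in both libraries (Spearman's rho 0.978 across 37 exon counts, a description without a test).

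The ladder occurred with each of 2 splice sites at its other end. Models differed by the acceptor of the last intron, which lay either at the site of Myh6-201 or 3 bases upstream, and the junctions are shown here for that reason. The stretches start 15 bases before the last junction and capitals mark the 3 added bases.
Myh6-201: gacattggtgccaagaagatgcacgac
Myh6-207: gacattggtgccaagCAGaagatgcacgac
Both span chr14:54941990-54942367 on the minus strand of mm10, and all the bases are coding in the transcript they come from. The site of Myh6-201 was used by 41 models with 4541 and 4383 reads, and the upstream site by 37 models with 1924 and 1838 reads. The upstream site thus made up 29.8% and 29.5% of the reads on the 5'-incomplete models. Among Myh6 models with all 39 exons it made up 30.2% and 30.3%, from 5726 of the reads against 13256 in replicate 1 and 6318 against 14549 in replicate 2. The models with and without the 5' part differed in this share by less than 1 percentage point in each library. Across the 27 exon counts with at least 100 reads, the share ranged from 22.2% to 41.4%, with a median of 30.0%. The steps had nearly the same order in both series, with a rho of 0.970 across 35 exon counts that held both, which share their libraries.

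**Figure D3:**
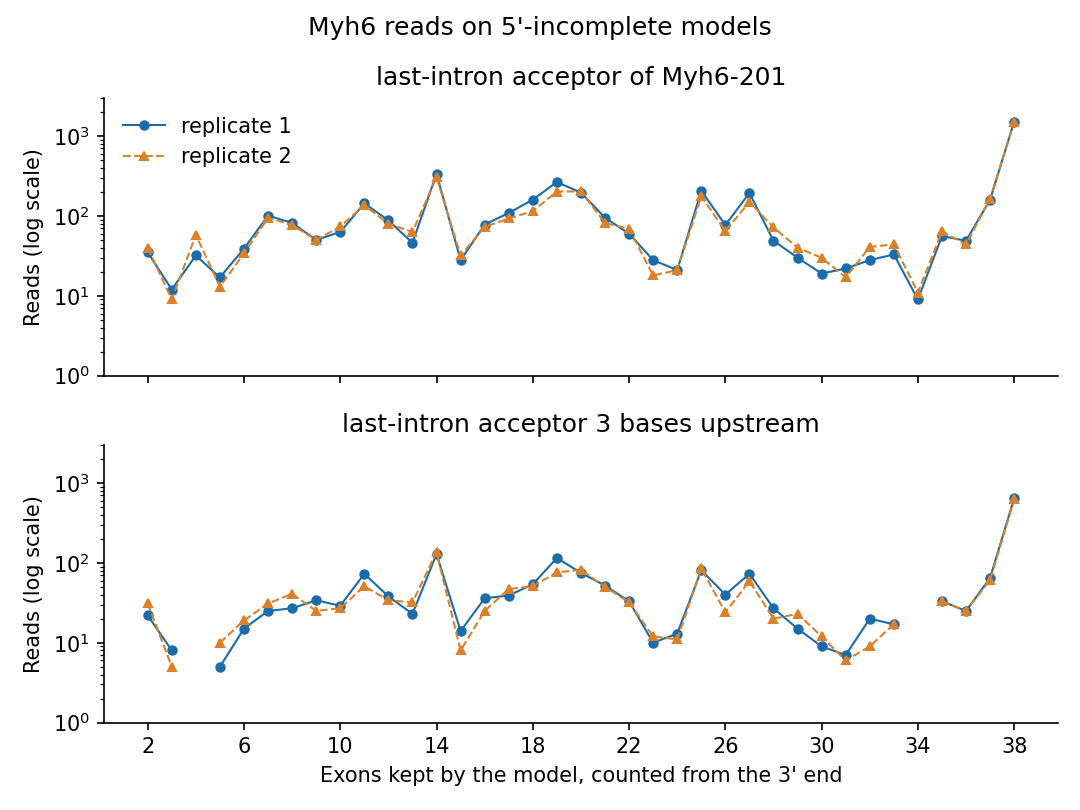
Reads on Myh6 5'-incomplete models (y axis, log scale) by the number of exons kept from the 3' end (x axis), for models with the last-intron acceptor of Myh6-201 (top) and with the acceptor 3 bases upstream (bottom). Circles are replicate 1 and triangles replicate 2; both panels are highest at 38 exons and have a further peak at 14, and a gap marks exon counts with no model.

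Among other genes of the sarcomere, the contractile unit, some had a single dominant model, some had a ladder, and some had few models or none. Actn2 (ENSMUSG00000052374.16), the alpha-actinin that anchors actin at the Z-disc, was of the first kind. Its 11 models held 915 of 3133 and 897 of 3124 reads, 29.2% and 28.7%. The model at chr13:12269426-12288657 alone had 780 and 751 of them. It kept the last 10 of 21 exons and lacked 1515 bases, 46.8% of the coding sequence. The other 10 Actn2 models had between 5 and 22 reads in a library, so that the model starting at the junction shown above stood well apart from its neighbours.

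Mybpc3 (ENSMUSG00000002100.15), the cardiac myosin binding protein C of the thick filament, showed the ladder form. It had 18 models with 364 of 522 and 376 of 564 reads, 69.7% and 66.7%. No read of the gene lay on an annotated transcript in either library. Its most-read model kept 11 exons and had 67 and 55 reads, and no model held more than 18.4% of the gene's reads on the models. Tnnt2, the cardiac troponin T that ties the regulatory complex to tropomyosin, likewise had no read on an annotated transcript. It had 6 models with 74 of 170 and 103 of 177 reads, 43.5% and 58.2%, with exact intervals of 36.0 to 51.3% and 50.6 to 65.5%. Ldb3, a PDZ-LIM protein of the Z-disc, had 9 models with 125 of 356 and 140 of 333 reads. Its most-read model, with 36 and 42 reads, lacked 1 exon of Ldb3-203, a form with 8 exons, which was 77 bases in replicate 1 and 63 in replicate 2. Nebl, the nebulin-like Z-disc protein, had 66 and 92 reads and no model.

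Other abundant filament genes, chosen here after their values were seen apart from Actc1 and Myl3, had lower shares than Myh6. Actc1, the cardiac actin, had 5 models with 398 of 4268 and 460 of 5113 reads (9.16% ± 0.232, SD, n = 2). Actin genes are near-identical in sequence, so placement between Actc1 and its paralogs is uncertain. Myl3, the ventricular essential light chain, had 4 models with 304 of 4965 and 425 of 6160 reads, 6.12% and 6.90%. Its 4-exon model led with 233 and 350 reads and lacked 3 exons and 433 bases. Tpm1, the tropomyosin of the thin filament, had 7 models with 122 of 11856 and 143 of 13632 reads, 1.03% and 1.05%.

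The models that lacked the most exons, named for that reason, lay mainly in genes of very long mRNAs. Ttn (ENSMUSG00000051747.14), the elastic filament of the sarcomere, had 57 and 64 reads, none of them on an annotated transcript. Its 2 models held 46 and 47 of those, 80.7% and 73.4%. The larger, with 37 and 34 reads, kept 6 exons and lacked 341 exons of Ttn-203, 103996 bases. The longest of all the models described here had 7181 bases in both libraries, far less than this missing part. Ryr2, the calcium release channel of the sarcoplasmic reticulum, had a single model with 9 of 61 and 6 of 43 reads, which kept 12 exons and lacked 93. Outside the sarcomere, Fbn1, the microfibril protein fibrillin, had a single model with 8 of 17 and 8 of 19 reads that kept 3 exons and lacked 63. Sptan1, the alpha spectrin of the membrane skeleton, had a 5-exon model with 5 of 50 and 7 of 58 reads that lacked 52 exons.

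Atp2a2, the calcium pump that refills the sarcoplasmic reticulum, had 18 models with 869 of 7664 and 803 of 8125 reads, 11.3% and 9.88%. The 14-exon model led with 199 and 219 reads and lacked 840 bases of Atp2a2-202. Hrc (ENSMUSG00000038239.11), the histidine-rich calcium-binding protein of the same compartment, differed from the pump in both share and form. Its 4-exon model at chr7:45337887-45338974 held 415 of 468 and 444 of 515 reads, 88.7% and 86.2%. It lacked 2 exons, 2156 bases and 91.2% of the coding sequence, while Hrc-201 as annotated had 29 and 40 reads. The model begins at the boundary printed above.

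Genes of the respiratory chain and ATP synthase included 6 of the 12 genes with the most reads on such models. Atp5b, the catalytic beta subunit of ATP synthase, had the single highest model, with 2 exons at chr10:128089041-128090272. It held 1724 of 8530 and 2057 of 9173 reads, 20.2% and 22.4%, and lacked 1425 bases and 86.4% of the coding sequence of Atp5b-201. Its difference between libraries did not pass Fisher's exact test (adjusted p = 0.103). The other 6 Atp5b models had 6 to 112 reads in a library.

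Ndufa4, a subunit of the terminal oxidase first assigned to complex I, had a single model that kept 2 of 4 exons. It held 1212 of 2095 and 1622 of 2824 reads, 57.9% and 57.4% (57.6% ± 0.294, SD, n = 2). The full Ndufa4-205 had 861 and 1189 reads. Ndufs7, an iron-sulfur subunit of complex I, had a 2-exon model with 374 of 876 and 495 of 1051 reads, 42.7% and 47.1%, beside 463 and 516 on the full Ndufs7-201. In both genes a leading truncated model thus stood beside the complete form.

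Atp5a1, the alpha subunit of ATP synthase, had 10 models but few of its reads on them, 363 of 6983 and 357 of 7322, 5.20% and 4.88%. Ogdh, the dehydrogenase of 2-oxoglutarate in the citric acid cycle, had a ladder of 14 models with 314 of 1137 and 358 of 1193 reads, 27.6% and 30.0%, and its leading 3-exon model had 54 and 65.

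In other genes of respiration the annotated form had few reads or none. Atp5f1 (ENSMUSG00000000563.17), the peripheral stalk subunit b of ATP synthase, had 1365 of 1411 and 1537 of 1613 reads on a 7-exon model, 96.7% and 95.3%. Its 8-exon reference had no read, and the exon that the model lacks holds no coding base. Ndufa13, an accessory subunit of complex I, had 583 of 598 and 740 of 753 reads on a 4-exon model, 97.5% and 98.3%, again with no read on an annotated transcript and no coding base missing. Atp5j, the coupling factor 6 of the ATP synthase stalk, had 625 of 840 and 796 of 1042 reads on a 4-exon model with no coding base missing, 74.4% and 76.4%, beside 56 and 60 on the 5-exon Atp5j-201.

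Pink1 (ENSMUSG00000028756.12), the kinase that marks damaged mitochondria for removal, had a 5-exon model at chr4:138312628-138318078 with 588 of 946 and 656 of 1023 reads, 62.2% and 64.1%. This model lacked the first 3 exons, 861 bases and 44.4% of the coding sequence, whereas the 8-exon Pink1-201 had 277 and 263 reads. The truncated model had more reads than the annotated form in both libraries.

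**Figure D4:**
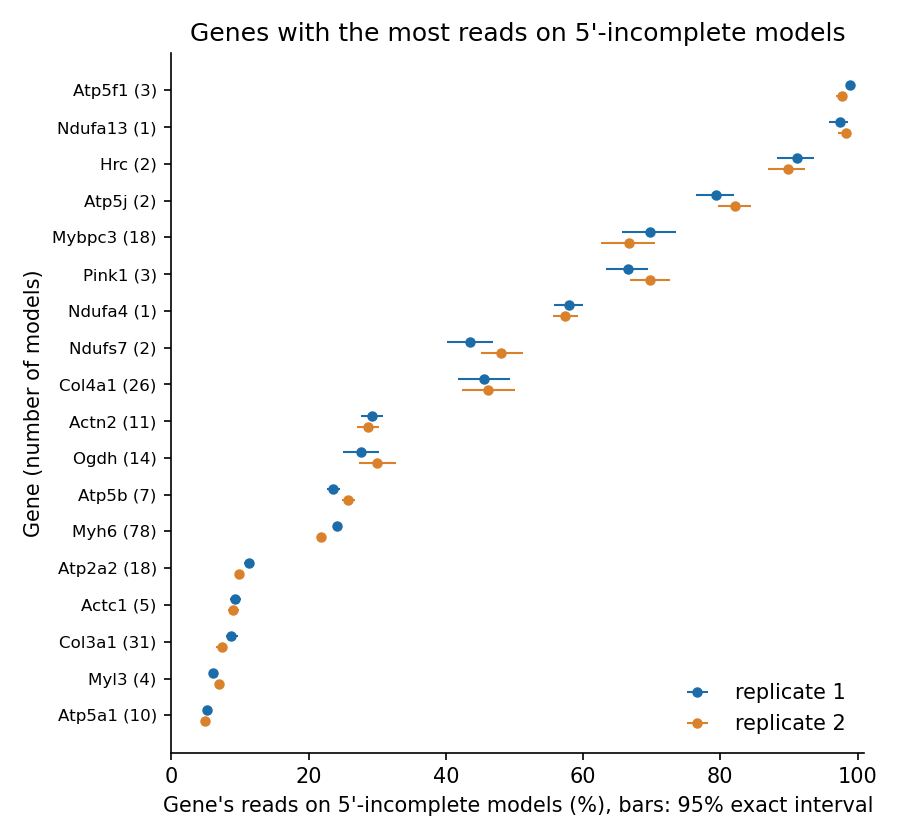
Percent of the gene's reads on 5'-incomplete models (x axis) for 18 of the 20 genes with the most reads on them (y axis, number of models in brackets); circles are replicate 1 in blue and replicate 2 in orange, and bars are 95% exact intervals of counting error. Atp5f1 and Ndufa13 lie above 97% and Atp5a1 near 5%, and the 2 libraries sit close together beside the spread between genes.

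Of the 10 models with the highest share of their gene, 7 lacked no coding base; Hrc, above, and Ttll1 lacked most of theirs. Psmc2, an ATPase of the proteasome, had 80 of 81 and 131 of 135 reads on a 12-exon model, 98.8% and 97.0%. Ctsa, a lysosomal carboxypeptidase, had 215 of 258 and 206 of 256 on a 15-exon model, 83.3% and 80.5%, lacking 0.678% of the coding bases. Serping1, the inhibitor of complement C1, and the tetraspanin Tspan12 lacked 42 and 110 bases in 1 exon. They had shares of 88.0% and 84.9%, and of 82.8% and 84.9%. Msra, which repairs oxidised methionine, had 54 of 57 and 50 of 55 reads on a model that lacked 5 exons but no coding base. Ttll1, a tubulin glutamylase subunit, went the other way with a 2-exon model, 42 of 56 and 54 of 74 reads, that lacked 77.1% of the coding sequence.

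RefSeq starts of 3 of these genes are shown because the models can be set against them: 20 bases before the start in lower case and 10 from it on in capitals, on RefSeq's GRCm38.p6.
Atp5pb: cgcgagatgtgcgagcggccATCTTGCTCC
Ctsa: caaactgtcacgtgatgcagATGCTCACGT
Psmc2: cggtggggaagagaaagggaAGACACCAGC
They lie at chr3:105959254-105959283 (minus strand, Atp5pb being the current symbol of Atp5f1), chr2:164833753-164833782 (plus) and chr5:21786727-21786756 (plus). The Atp5f1 model began 13 bases before this start in replicate 1 and 1 base before it in replicate 2. The Ctsa model began 34 bases after its RefSeq start in both libraries and the Psmc2 model 97 bases before it. For these 3 genes the GENCODE reference begins further upstream, by 456 and 468 bases of transcript in Atp5f1, 379 in Ctsa and 235 in Psmc2. Set against RefSeq, the Atp5f1 and Ctsa models began within 50 bases of a start. The deposited starts of the Atp5f1 model are themselves GENCODE transcript starts in both libraries. For this gene the match thus compares RefSeq with GENCODE and does not show where reads began. The deposited starts of the Ctsa and Psmc2 models cannot be read as the positions at which reads began either.

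Models that began at an annotated transcript start also occurred in genes whose annotated transcripts were well covered. Myl7, the atrial myosin light chain, had 140 of 345 and 177 of 406 reads on a model that lacked 22 bases of Myl7-201, which had 179 and 202 reads. Dgat2, an enzyme of triglyceride synthesis, had 124 and 138 reads on such a model beside 818 and 759 on Dgat2-201. Ppp2r1a, the scaffold of protein phosphatase 2A, had 119 and 133 beside 261 and 279. Prkar1a, a regulatory subunit of protein kinase A, and Eif4g2, a translation initiation factor, had models with 130 and 159 reads and with 170 and 156, while the longer forms Prkar1a-203 and Eif4g2-206 had at most 2 reads in a library. Paip2, a regulator of poly(A)-binding protein, had 165 of 394 and 200 of 456 reads on its model, 41.9% and 43.9%, beside 215 and 229 on Paip2-201. The longer form was thus the more abundant in Myl7, Dgat2, Ppp2r1a and Paip2. In Prkar1a and Eif4g2 the longer form named was nearly without reads, but other annotated transcripts were not. All annotated transcripts together held 685 and 654 reads in Prkar1a and 658 and 726 in Eif4g2, more than the models.

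Among the collagens, 3 had long ladders and the other 8 on the list had at most 5 models each. Col3a1, the fibrillar collagen of vessel walls, had 31 models with 364 of 4165 and 321 of 4381 reads, 8.74% and 7.33%. Col4a1 and Col4a2, which form the basement membrane network together, had 26 and 19 models. Col4a1 had 316 of 695 and 312 of 675 reads on them, 45.5% and 46.2%, and Col4a2 had 223 of 747 and 213 of 804, 29.9% and 26.5%. No Col4a1 model had more than 28 reads in a library. Sparc, a matrix glycoprotein that binds collagen, had 6 models with 301 of 1171 and 321 of 1230 reads, 25.7% and 26.1%. Dcn and Lum, small proteoglycans of the matrix, had 630 and 602 and 220 and 271 reads and no model.

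Counted over lists of heart genes, 19 of the 25 sarcomere genes with at least 5 reads in each library had a model, with 171 models and 13.5% ± 1.08 (SD, n = 2) of the list's reads. Without Myh6 it was 93 models and 7.02% ± 0.257. The same values over all 8895 genes were 634 genes and 4.19% and 4.23% of reads. In excitation-contraction coupling 9 of 19 genes had a model, with 8.43% ± 0.602 of reads. For collagen and matrix the count was 11 of 24 genes and the share 13.2% ± 0.671. For energy metabolism the counts were 15 of 19 for fatty acid oxidation (3.29% ± 0.193), 11 of 19 for the citric acid cycle (3.97% ± 0.0514), 12 of 23 for oxidative phosphorylation (4.50% ± 0.247, a list without Atp5f1, Ndufa4, Atp5j, Ndufa13 and Ndufs7) and 8 of 16 for glycolysis (2.22% ± 0.275).

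Lists of protein synthesis and folding had both low and high shares. Ribosomal proteins had a model in 4 of 19 genes, with 1.55% ± 0.411 of reads, and the chaperones in 4 of 11, with 1.76% ± 0.0258. Elongation factors had a model in 2 of 6 genes, with 17.0% ± 1.82, all from Eef1a1 and Eef2. Among endothelial genes, 3 of 10 had a model, and Fabp4, a fatty acid carrier, held most of it with 162 of 254 and 153 of 236 reads, 63.8% and 64.8%. In the globins, short and highly expressed, 1 of 4 genes had a model, with 0.0677% ± 0.00773 of reads. Lists differ in depth and transcript length, so the shares are descriptions and no list was tested against others.

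The length of the transcript went with the share of reads on the class. Over all suffix models, including those with few reads, genes with at least 50 reads and a main transcript under 1 kb had 4.39% and 4.58% of their reads on them. From 1 to 2 kb it was 4.07% and 4.42%, from 2 to 3 kb 6.20% and 6.31%, and from 3 to 5 kb 8.88% and 8.87%. Above 5 kb it was 19.6% and 18.2%, in 178 genes, and without Myh6 it was 14.9% and 14.4%. The share of the median gene was higher in each longer bin, from 0.235% and 0.199% under 1 kb to 7.18% and 6.78% above 5 kb. Across the 2686 genes, Spearman's rho of the share was 0.386 with transcript length and 0.593 with the number of exons. This is a description across genes, which share libraries and depth and are not independent replicates. A suffix model must keep an intron and lack an intron of the longer transcript. Genes with few exons can thus have few such models or none, so the share is tied in part to the number of exons by definition.

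The part that the models kept also lengthened with the reference. The median model was 567 bases long for references under 1 kb, 1896 for 2 to 3 kb and 3378 above 5 kb, with quartiles of 2473 and 4240 in the last bin. The missing part grew from 234 to 529 and 2401 bases over the same bins, and from 1 to 3 and 17 exons. Both parts were longer in longer references.

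**Figure D5:**
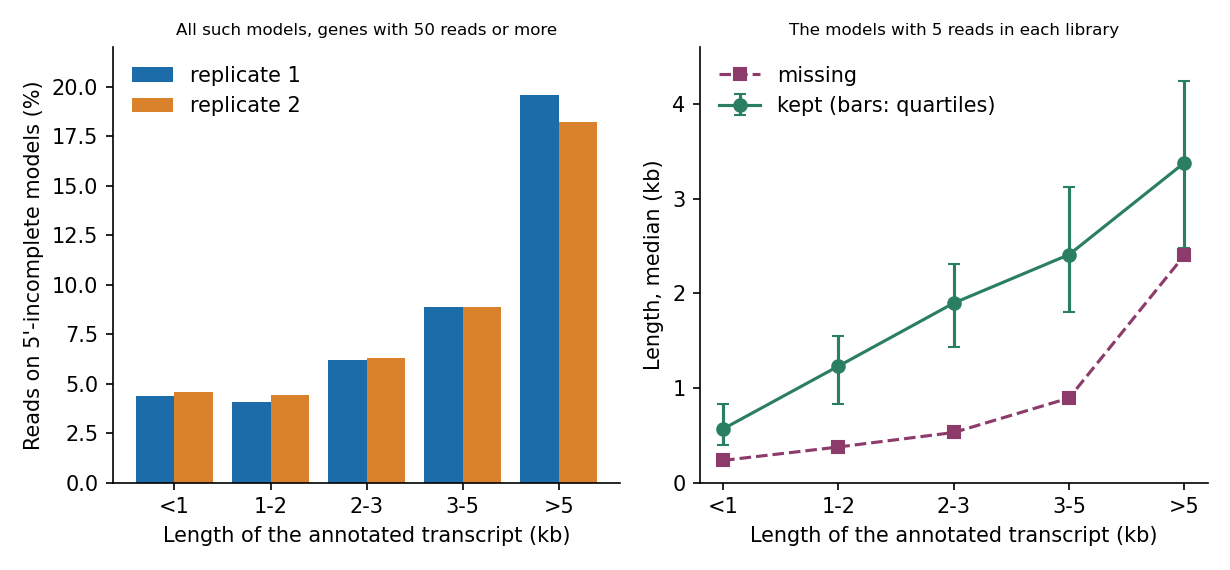
Left, percent of reads on all 5'-incomplete models (y axis) by length of the gene's main annotated transcript in kb (x axis), for genes with at least 50 reads in each library; bars are the 2 libraries. Right, median length in kb (y axis) kept and missing in the models with at least 5 reads in each library, by reference length (x axis), where bars are quartiles of the kept part. In replicate 1 the share is 4.39% in the shortest bin and 19.6% in the longest, and the kept part stays longer than the missing part in every bin.

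The base composition of the missing part was compared with that of the kept part, which the rule did not use. In 1106 models with at least 50 bases of each, the median GC content was 57.6% in the missing part and 51.9% in the kept part, and it was higher in the missing part in 955 models (86.3%). Genes without any model showed the same direction. Their most-read annotated transcripts, divided at 27.8% of the length as in the median model, had a GC content of 57.2% in the 5' part and 48.1% in the rest, and it was higher in the 5' part in 92.7% of 2229 genes. Close to the start the contrast was small, with 57.0% in the 100 bases before it and 55.5% in the 100 after.

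Whether the models differed between the libraries was tested by the share of the gene's reads on the model, with a two-sided Fisher's exact test and Benjamini-Hochberg adjustment over all 10785 matched models of every class with at least 5 reads in each library. Of the 1193 models, 3 passed an adjusted p of 0.05, or 0.251%, against 24 of the 10785, or 0.223%. At an unadjusted p of 0.05 there were 60 of the 1193, 5.03%, against 4.25% of all. The share of models called was thus near the background, though only 1 of the 3 can be compared between the libraries, as given below. Among models with at least 10 reads in each library the test called 3 members, against 27 of 7355 models of all classes (0.367%). With no minimum of reads it called 20 suffix models, against 499 of 139186 models of all classes (0.359%). The 3 come from fewer than 1193 models, and the 20 from suffix models at any read count, of which 28632 were listed. An exact binomial test of the model's reads given the library totals called 12 of the 1193, against 1.17% of all models, and 10 against 1.07% with TMM-scaled totals.

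Of the 3, Eef2 is the model that can be compared. Eef2, the elongation factor that moves the ribosome along the mRNA, had 25 of 337 reads on an 8-exon model in replicate 1 and 64 of 357 in replicate 2, 7.42% and 17.9% (adjusted p = 0.0204, Fisher's exact test). The other 9 Eef2 models did not pass. The models named for Cpt1b, the carnitine transferase that brings fatty acids into mitochondria, and H2-Ke6, a steroid dehydrogenase of the histocompatibility region, were placed on different genes in the 2 libraries. Their reads were 15 and 24, and 21 and 31. Their shares had different genes below the line, 521 and 24 reads for Cpt1b and 79 and 35 for H2-Ke6, and were not comparable.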

How the data were processed

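Long-read RNA sequencing of heart RNA from female B6CASTF1/J mice gave 2 libraries of 1 group. Per the deposited text, each library was quantified by the authors on its own, from filtered alignments to mm10, against GENCODE M21. The deposited count per transcript model is a whole number of reads, not normalized, and only models with a read are listed. The model classes are those of TALON, per the file headers; aligner, filters and versions: not given in the sources used here. Start and end positions came from the deposited model files.

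Models of the 2 libraries were paired where chromosome, strand and all introns were identical, and a gene's reads are all classes except genomic. Fisher's exact test, exact Clopper-Pearson intervals (95%) and medians were computed with Python 3.11.15, pandas 2.3.3 and SciPy 1.17.1. A count test with replicates was not possible, since each library is a single sample. On simulated data with known changes, the test called 1 of 10585 unchanged models, 84 of 100 changed 4-fold and 21 of 100 changed 2-fold. The counts were drawn with counting error only. Changes were made only in models with a low share of their gene's reads, so these values do not cover models with high shares. Alternative totals used edgeR 4.0.16 (TMM) and DESeq2 1.42.0 size factors in R 4.3.3. Depth was 896941 and 972159 reads. Sequences came from GENCODE M21 transcripts and RefSeq (GRCm38.p6).

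The members, gene lists and tests were chosen with earlier results of these data known. Genes named are the 20 with the most reads on the models, the 10 models with the highest share among genes with at least 50 reads in each library, the 10 lacking the most exons, those past the library test, 9 heart genes always named, the 5 genes with the most models and up to 10 models within 50 bases of an annotated start. Examples from the gene lists, Myh7 and the sequences shown were chosen after their values were seen. A few genes that the rule picks are not reported here.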

Additional observations from a re-analysis of the deposited data

How the results depend on the processing

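The number of models that differed between the libraries was 3 by Fisher's exact test on the gene's reads and also with at least 10 reads in each library. It was 12 by an exact binomial test given the library totals, 10 with TMM-scaled totals and 12 with totals scaled by DESeq2's size factors. With no minimum of reads it was 20, counted over suffix models at any read count and not over the 1193. Without the models placed on different genes it was 1, an alternative chosen after seeing the data. For that setting no count over all models was made, so this count has no background beside it. The binomial tests, which compare the level of the model and not its share of the gene, called 126, 115 and 126 of all 10785 models (1.17%, 1.07% and 1.17%), and each shared 1 called member with Fisher's test. The median share of a gene's reads on the models, 13.1%, was 15.9% over annotated and suffix reads only, 12.6% with genomic reads included, 16.5% with at least 10 reads, 11.4% with at least 3 and 19.7% with every suffix model of these genes. Without 1 replicate it ranged from 12.7% to 13.3%. The median missing part, 706 bases, was 759 with the longest reference, 609 with the reference lacking the fewest bases and 656 with at least 10 reads, and ranged from 701 to 706 without 1 replicate. The percent of models near an annotated start, 24.1%, was 24.0% within 20 bases, 24.6% within 100 and 5.28% for transcripts with a read only, and ranged from 25.6% to 25.9% without 1 replicate. Without 1 replicate a near start is needed in 1 library only, so that percent cannot fall below 24.1%. Counting only transcripts with a read leaves fewer starts, so it cannot raise the percent. A window of 20 bases cannot raise that percent and a window of 100 cannot lower it. Leaving classes out of the gene's reads cannot lower the median share, and adding genomic reads cannot raise it. Counting every suffix model of these genes cannot lower the median share either. The reference lacking the fewest bases cannot lengthen the missing part. The cause of the remaining shifts was not tested. Leaving out a replicate was not possible for the library test, which needs both. No paired analysis was possible because there is 1 group. Models near 5 reads are limited by depth: 217 had 5 reads in a library.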
